A study of Homo sapiens with 2 samples.

Results

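Chemokines and chemokine receptors were analysed in SU-DHL-1, an established human cell line of ALK-positive anaplastic large cell lymphoma (ALCL), in cells transfected with an siRNA against the homeobox gene HLX (siHLX) and in cells transfected with a negative control siRNA (siCTR). Members were all probe sets of the HG-U133 Plus 2.0 array that the platform annotation pairs with exactly 1 gene whose symbol is a family name (CCL, CXCL, XCL, CX3CL, CCR, CXCR, XCR, CX3CR or ACKR) followed by a number. This rule gave 88 probe sets of 57 genes, among 41091 probe sets of 19775 genes with 1 symbol. Of the other family genes, CCL3, CCL14, CCL15 and XCL2 were read only by probe sets shared with further genes, and the rest were not analysed here. There was 1 array per siRNA, so no difference below has a replicate error or a test, and the number of arrays limits the precision. HLX itself read 7.70 with siHLX and 8.15 with siCTR in log2 intensity, which is 0.73 times the control level. Both groups share the NPM1-ALK fusion of this line and the electroporation, and the knockdown was transient in a single line. The labels give 1 sample per siRNA.

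Chemokines are small secreted or membrane-bound proteins that attract leukocytes along a gradient. They are named by the spacing of their first cysteines (C, CC, CXC and CX3C), and most signal through receptors that couple to inhibitory G proteins, whereas the atypical receptors (ACKR) bind chemokines and remove them without such coupling. T helper cells and innate lymphoid cells carry matching sets. CXCR3 and the interferon-induced ligands CXCL9, CXCL10 and CXCL11 go with type 1 immunity, CCR4, CCR8, CCL17 and CCL22 with type 2, and CCR6, its ligand CCL20 and the ligands that attract neutrophils with type 3.

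Most of the family was not detectable in SU-DHL-1. A probe set was called detectable when its mean log2 intensity over both arrays was at or above 4.865, the median of all probe sets that are not controls. This applied to 9 of 88 probe sets (10.2%), from 8 of 57 genes, against 54.6% of all probe sets with 1 gene. For comparison, 9.35% of the 107 probe sets of olfactory receptors, genes that lymphocytes do not use, lay at or above the same level. The 95th percentile of the olfactory receptor probe sets was 5.18, and 7 member probe sets reached it. Only 1 member, CCL20, lay in the upper quartile of all probe sets (7.095 or more), which held 29.1% of the probe sets with 1 gene. On both arrays 9 members reached the threshold, 8 did so on 1 array and 71 on neither. Probe sets differ in how well they bind their transcript, so the levels do not rank the genes by abundance, and a level below the threshold does not show that a transcript is absent.

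**Figure D1:**
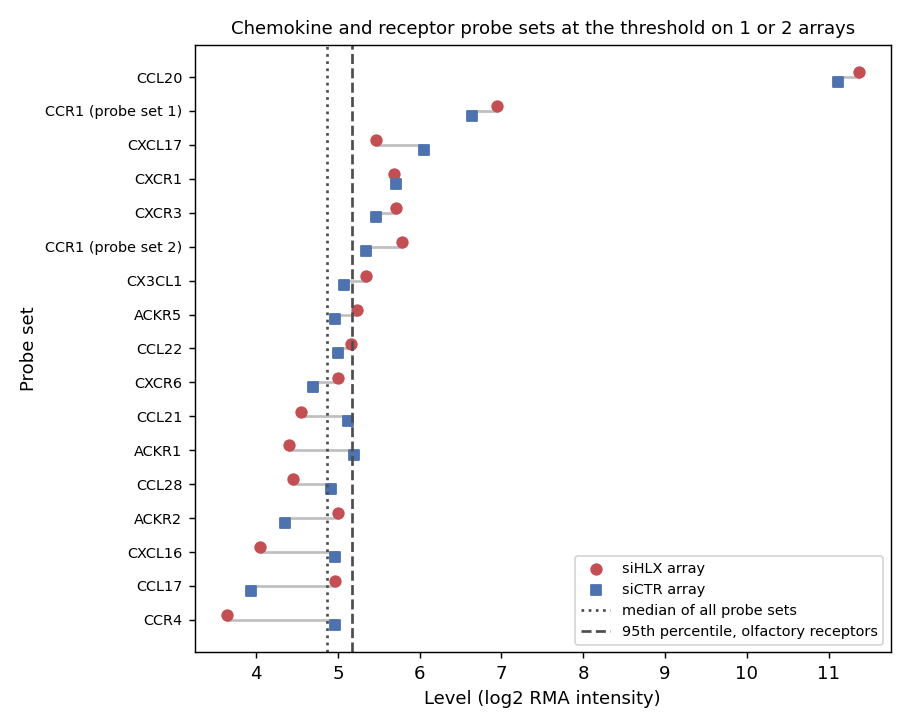
Level (x axis, log2 RMA intensity) of the 17 member probe sets (y axis) that reached the threshold on 1 or 2 arrays, with red circles for the siHLX array and blue squares for the siCTR array. The dotted line marks the median of all probe sets at 4.865 and the dashed line the olfactory receptor limit of 5.18. CCL20 lies at 11.37 with siHLX and 11.12 with siCTR, apart from all other members.

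The 2 arrays had the same median log2 intensity of 4.87. Of 13 ALCL and T-cell markers measured, 11 were detectable, among them ALK, TNFRSF8 (CD30), IL2RA and BATF3, while CD2 and TBX21 were not. GATA3, the master factor of type 2 cells, read 9.54 with siHLX and 9.04 with siCTR on its brightest probe set. Of 24 poly-A spike control probe sets, 23 were lower on the siHLX array, with a mean difference of -0.29 (SD 0.18), so that scaling to these controls would add 0.29 to every difference given here.

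CCL20, the ligand of CCR6 and a product of TH17 cells and of type 3 innate lymphoid cells, was the bright member. In RNA pooled from many cells, as here, fewer cells with a transcript and less of it per cell cannot be told apart. The CCL20 probe set read 11.37 with siHLX and 11.12 with siCTR, a log2 difference of 0.25 or 1.19-fold. At a mean of 11.245, only 2.12% of the probe sets with 1 gene were as bright or brighter. Differences are small at this height: the SD of the difference over the 866 probe sets within 0.5 log2 units was 0.11, and 1.73% of them lay as far up. CCL20 has only this probe set, so its difference could not be set against a second reading of the same RNA. CCR6 itself, the only signalling receptor known for CCL20, was below the threshold, with 3.22 on the siHLX array and 3.31 on the siCTR array.

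The promoter sequences of CCL20 and CCR1 are shown because these 2 genes had the brightest ligand and receptor probe sets. Both are RefSeq sequences of GRCh38.p14, from 250 bases before to 50 after the gene start, read 5′ to 3′ along the gene, at chr2:227813592-227813891 (plus strand) and chr3:46208264-46208563 (minus strand). Capitals mark matches, on either strand, to GGGNNNNNCC (a loose form of the NF-kB site), TTCNNNGAA (the STAT site), TATAAA (the TATA box) or CAATTAA (a homeobox site).
CCL20: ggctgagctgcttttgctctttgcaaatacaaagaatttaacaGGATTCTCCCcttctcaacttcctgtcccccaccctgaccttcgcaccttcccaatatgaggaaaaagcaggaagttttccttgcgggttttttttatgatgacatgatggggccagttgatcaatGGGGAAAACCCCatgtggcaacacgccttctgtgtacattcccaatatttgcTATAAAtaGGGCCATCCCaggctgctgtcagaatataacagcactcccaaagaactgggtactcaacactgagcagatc
CCR1: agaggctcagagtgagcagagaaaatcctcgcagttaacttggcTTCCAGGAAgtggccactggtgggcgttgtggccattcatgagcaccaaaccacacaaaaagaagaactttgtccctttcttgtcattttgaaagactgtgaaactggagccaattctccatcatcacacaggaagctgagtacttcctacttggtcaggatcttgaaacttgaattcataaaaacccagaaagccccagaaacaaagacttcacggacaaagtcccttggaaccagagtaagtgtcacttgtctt
The CCL20 window held a TATAAA match from position -29 to -24 before the gene start and several NF-kB matches, 3 of which overlap between -81 and -70. The CCR1 window held 1 STAT match, from -206 to -198, and no match to the other letters. Among 27305 promoters of this length, 1 per gene symbol, 58.0% held the NF-kB letters, 7.88% the STAT letters, 12.0% the TATA letters and 2.40% the homeobox letters. Of the 57 member genes 40 had a promoter in the table, of which 55.0% held the NF-kB letters, 17.5% the STAT letters, 27.5% the TATA letters and 0% the homeobox letters. With a share of only 2.40% over all promoters, 0% of 40 is no result about homeobox sites in the members. A match describes the sequence and does not show that a factor binds there.

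Among the receptors, CCR1, which binds inflammatory CC chemokines such as CCL5, CCL7 and CCL23, was read by both of its probe sets above the threshold. The brighter gave 6.95 with siHLX and 6.64 with siCTR, and the dimmer 5.79 with siHLX and 5.34 with siCTR. The differences of 0.31 and 0.45 had a mean of 0.38 (SD 0.10 between 2 probe sets of the same RNA, a technical spread). Both probe sets were thus higher on the siHLX array, but of the probe sets at like level 12.1% lay as far up as the brighter reading and 14.1% as far up as the dimmer. CCR1 is chiefly known from monocytes, and of 6 monocyte and macrophage markers measured, 2 were detectable, CSF1R with 6.23 on the siHLX array and 5.79 on the siCTR array, and ITGAM with 4.45 on the siHLX array and 5.51 on the siCTR array. The other ITGAM probe set, below the threshold, went the other way, with 3.89 on the siHLX array and 3.54 on the siCTR array. LYZ, CD14, S100A8 and S100A9 were below the threshold. The summed level of these 6 markers was 7.33 log2 units with siHLX and 7.36 with siCTR. Their part in the CCR1 reading was not tested.

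CXCR3, the receptor of type 1 lymphocytes for CXCL9, CXCL10 and CXCL11, had 1 of 2 probe sets above the threshold, with 5.71 on the siHLX array and 5.47 on the siCTR array. Its other probe set read 4.45 with siHLX and 3.84 with siCTR, so both were higher on the siHLX array (0.24 and 0.61), although the 0.61 came from below the threshold. CXCR1, a receptor for CXCL8 on neutrophils, read 5.68 with siHLX and 5.71 with siCTR, a difference of -0.03. Its near relative CXCR2 was below the threshold, with 3.13 on the siHLX array and 3.09 on the siCTR array.

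The other detectable ligands were dim. CXCL17, a chemokine of mucosal surfaces, read 5.47 with siHLX and 6.05 with siCTR, and its difference of -0.58 was the most negative of the detectable members. Of 4823 probe sets at like level, 6.57% lay as far down. CX3CL1, a membrane-anchored ligand also called fractalkine, read 5.34 with siHLX and 5.08 with siCTR on its brighter probe set, and 4.30 with siHLX and 3.91 with siCTR on the dimmer. CCL22, a ligand of CCR4 that attracts TH2 cells and regulatory T-cells, lay just above the threshold with 5.16 on the siHLX array and 5.00 on the siCTR array. So did ACKR5, a scavenging receptor of lymphatic and other endothelium formerly named GPR182, with 5.23 with siHLX and 4.96 with siCTR. The endothelial markers PECAM1, CDH5 and VWF were all below the threshold. Just below it lay CXCR6, with 5.00 on the siHLX array and 4.69 on the siCTR array, and CCL21, with 4.55 on the siHLX array and 5.12 on the siCTR array.

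In the pairs looked at, ligands and receptors were not detectable together. Of 11 textbook pairs that include a detectable member, 0 had both partners above the threshold. Only 8 of the 57 member genes were detectable at all, and several pairs share a member, so 0 of 11 is no result about pairing. These pairs were chosen after the levels had been seen, and none was set for CXCL17 or ACKR5. Family members outside the naming rule, such as PF4, were not paired either. CX3CR1, the receptor of CX3CL1, read 3.79 with siHLX and 3.44 with siCTR. CXCL8, the ligand of CXCR1, read 3.64 on both arrays with the brighter of its probe sets. The ligands of CXCR3 were dim too, with CXCL9 at 4.45 on the siHLX array and 4.05 on the siCTR array, CXCL10 at 3.69 on the siHLX array and 4.35 on the siCTR array, and CXCL11 at 2.72 on the siHLX array and 3.13 on the siCTR array. For CCR1, of the ligands paired here CCL5 came closest to the threshold, with 4.78 on the siHLX array and 4.69 on the siCTR array. The probe set that CCL3, another CCR1 ligand, shares with CCL3L1 and CCL3L3 read 3.94 with siHLX and 4.60 with siCTR.

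By type of immunity, each of the 3 types had 1 or 2 detectable probe sets. In type 1, 2 of 18 probe sets were detectable, of CXCR3 and CX3CL1, with differences of 0.24 and 0.26. In type 2 it was 1 of 10, of CCL22, with 0.16, and its mean level of 5.08 lay below the olfactory receptor limit of 5.18. In type 3 it was 2 of 15, of CCL20 and CXCR1, with 0.25 and -0.03. Among chemokines and receptors that act mainly on monocytes, both probe sets of CCR1 were detectable out of 10 in the group. Among homing chemokines and receptors it was 1 of 25, of CXCL17, and among scavenging receptors 1 of 10, of ACKR5. The assignment of genes to these groups follows textbook roles, and some members, such as CX3CL1 or CCR8, act in more than one setting. Placing CXCL17, a chemokine of mucosal surfaces, in the homing group was a choice, and no other probe set of that group was detectable.

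By family, 2 of 26 CCL, 1 of 23 CXCL, 0 of 2 XCL and 1 of 2 CX3CL probe sets were detectable, as were 2 of 10 CCR, 2 of 11 CXCR, 0 of 2 XCR, 0 of 2 CX3CR and 1 of 10 ACKR probe sets. Over all members it was 9 of 88 (10.2%), near the 9.35% of olfactory receptor probe sets. Members that lie next to each other in the genome, with gaps of at most 1 Mb, showed the same picture. The run that holds CXCL8, CXCL6, CXCL1, CXCL5, CXCL3 and CXCL2, whose products attract neutrophils, had 11 probe sets, none detectable and none above 3.715. The run of CXCL9, CXCL10 and CXCL11 had 4 probe sets, none above 4.25. The runs of CCL genes around CCL2 and around CCL5 had 5 and 9 probe sets, none detectable, whereas CCL22 and CX3CL1 are neighbours and were both detectable, with CCL17 next to them at 4.96 on the siHLX array and 3.94 on the siCTR array. Among lymphocyte homing receptors, CCR7 read 3.13 with siHLX and 3.27 with siCTR, and CXCR4, the receptor of CXCL12, read 4.35 with siHLX and 4.25 with siCTR on the brightest of its 3 probe sets.

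No detectable member reached 2-fold. Of the 9, 0 were at least 2-fold higher with siHLX, where 0.41% of the 22453 detectable probe sets with 1 gene were, and 0 were at least 2-fold lower, where 0.401% were. With shares this small, 0 of 9 is no result about the family. Their differences ran between -0.58 for CXCL17 and 0.45 for the dimmer probe set of CCR1, 7 being higher and 2 lower with siHLX, and their median was 0.25. Over all detectable probe sets with 1 gene the median was 0, with 10662 higher and 11210 lower. This median depends on how the arrays are scaled, and so does that of all genes. The 9 include both probe sets of CCR1 and come from 1 array per group. Their split into higher and lower was not tested and is no result about the family. The SD of the difference over probe sets at levels between 5 and 7, where 8 of the 9 lie, was 0.37, larger than the difference of 6 of these 8.

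**Figure D2:**
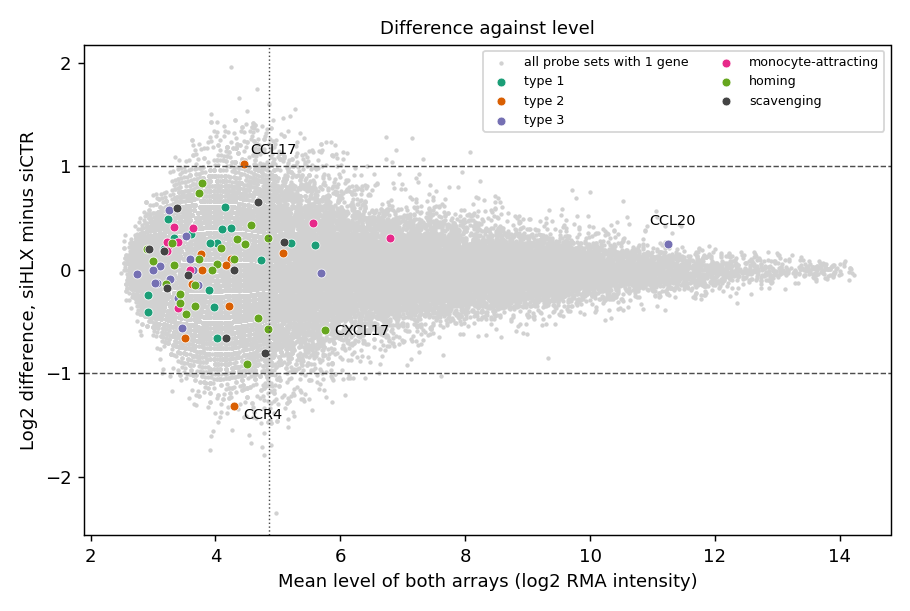
Difference siHLX minus siCTR (log2 units, vertical axis) by mean intensity (log2 RMA units, horizontal axis) of all probe sets with 1 gene (grey) and for members coloured by group. Dashed lines show the 2-fold limits, a dotted line the 4.865 threshold. CCL20 lies to the right at 0.25, and CCL17 at 1.02 and CCR4 at -1.32 lie left of the threshold.

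Below the threshold 1 of 79 member probe sets was at least 2-fold higher with siHLX, where 0.907% of all probe sets with 1 gene at these levels were, and 1 was at least 2-fold lower, where 1.05% were. A count of 1 of 79 each way is near these shares and no result about the family. Both belong to type 2 immunity. CCL17, a ligand of CCR4, read 4.96 with siHLX and 3.94 with siCTR, a difference of 1.02. CCR4, the receptor of TH2 cells, read 3.64 with siHLX and 4.96 with siCTR, a difference of -1.32. For each, 1 array lay above the threshold and the other below it, and each has a single probe set. The SD of the difference at levels between 4 and 5 was 0.49. From 1 probe set each with a mean below the threshold, the opposite signs of the ligand and its receptor were not read as a pattern. The type 2 probe sets, with CCL22 at 0.16, had no common direction, with 5 higher, 4 lower and 1 equal.

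Further members with 1 array above the threshold went both ways. CXCL16, a transmembrane ligand of CXCR6, read 4.05 with siHLX and 4.96 with siCTR. ACKR1, the Duffy antigen that binds many chemokines on red cells and venules, read 4.40 with siHLX and 5.20 with siCTR. The probe set that ACKR1 shares with CADM3, below the threshold, went the other way, with 3.94 on the siHLX array and 3.79 on the siCTR array. ACKR2, which removes inflammatory CC chemokines, read 5.00 with siHLX and 4.35 with siCTR on its brightest probe set, but its other probe sets differed by 0 and -0.66. CCL28, a mucosal ligand of CCR10, read 4.45 with siHLX and 4.92 with siCTR on its brightest probe set, and its other probe sets differed by 0.84 and 0.08. The probe sets of ACKR2 and CCL28 thus disagreed in sign within the same RNA, with SDs of 0.66 for both genes. Of 15 member genes with exactly 2 probe sets, 11 had the same sign on both (73.3%), and of all 5015 genes with exactly 2 probe sets 46.3% did. Of the 23 member genes with 2 or more probe sets, the same 11 agreed (47.8%), against 31.2% of all 10523 such genes. Only 1 member gene had 2 or more detectable probe sets, so most of these readings lie below the threshold. Some probe sets differ by exactly 0 and count as no agreement.

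Over all levels, 50 of the 88 member probe sets were higher on the siHLX array, 32 lower and 6 equal, with a median of 0.095. Of all 41091 probe sets with 1 gene, 19216 were higher, 20308 lower and 1567 equal, with a median of 0. Most member readings, 79 of the 88, lie below the threshold, and many genes have more than 1 probe set. The split was not tested and is no result about the family. By group, the member medians were 0.26 for type 1 (18 probe sets), 0.03 for type 2 (10), -0.03 for type 3 (15) and 0.27 for the monocyte-attracting group (10). The type 1 probe sets ran from -0.66 for CXCL10 to 0.61 for the dimmer probe set of CXCR3, and those of type 3 from -0.56 to 0.58, both of these being probe sets of CXCL2. CXCL2, a neutrophil attractant, was thus the lowest and the highest type 3 reading at once. XCL1, the C chemokine of cytotoxic cells, had 0.26 and 0.31, and CCL4, a CC chemokine of the same cells, had 0.25. CCL5, made by these cells too, had 0.09, -0.20 and 0.20, and the probe set that includes CCL3 had -0.66. All of these lie below the threshold. SU-DHL-1 expressed the cytotoxic genes GZMB at 13.41 with siHLX and 13.39 with siCTR and PRF1 at 12.75 with siHLX and 12.72 with siCTR.

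**Figure D3:**
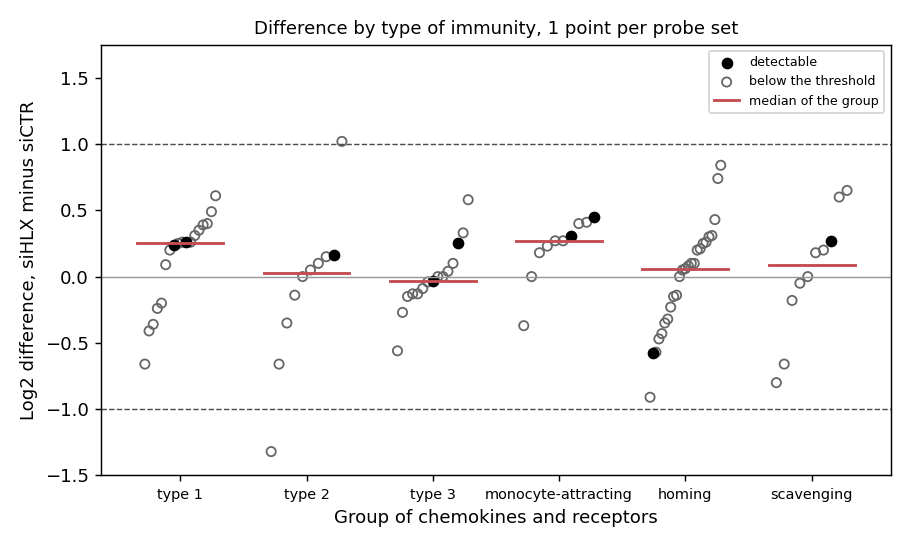
Difference siHLX minus siCTR (vertical axis, log2 units) of the 88 probe sets, grouped by role (x axis), with filled points for detectable and open points for other probe sets, and a red line for the median of each group. Dashed lines mark 2-fold. The 9 filled points lie between -0.58 and 0.45, and the group medians between -0.03 and 0.27.

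Members below the threshold on both arrays made up 71 of the 88 probe sets and included most of the homing and the eosinophil-attracting genes. CCL11, CCL24 and CCL26, the eotaxins that act through CCR3, had differences of -0.66, 0.10 and 0.15. In the homing group CCL25, the ligand of CCR9 in gut and thymus, read 4.10 with siHLX and 3.36 with siCTR, while CCR9 read 3.31 with siHLX and 3.74 with siCTR. CXCL13 and its receptor CXCR5, which direct cells to B-cell follicles, had 0.20 for the ligand, and 0.25 and -0.15 for the 2 probe sets of the receptor. CCL19, a ligand of CCR7, had a difference of 0.30. Among the monocyte attractants CCL2 had -0.37, the only lower probe set of its group, and CCL7, CCL8 and CCL16 had 0.27, 0.18 and 0.27. Of the probe sets shared between genes, the one for XCL1 and XCL2 read 3.79 with siHLX and 3.13 with siCTR, that for CCL14 read 4.65 with siHLX and 4.45 with siCTR, and that for CCL15 differed by 0.04, all below the threshold.

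Family members with names outside the pattern were checked beside these. PF4, the platelet chemokine CXCL4, read 4.60 with siHLX and 5.47 with siCTR, a difference of -0.87. Of 4 platelet markers 3 were detectable by their brightest probe set, and PF4, ITGA2B (-0.84) and GP9 (-0.15) read lower there with siHLX, while the 3 dimmer probe sets of ITGA2B, all below the threshold, gave 0.71, 0.18 and -0.20. The summed level of the 4 markers was 6.86 log2 units with siHLX and 7.34 with siCTR. This sum includes PF4 itself, so it is no separate check on the PF4 reading. PPBP, another platelet chemokine, was below the threshold, and the part of platelet genes in these values was not tested. CKLF, a chemokine-like factor of another gene family, read 10.85 with siHLX and 10.89 with siCTR on its brighter probe set. CCRL2, an atypical binding protein for chemerin, was below the threshold.

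Genes that act with chemokine receptors were mostly detectable. Of 46 such genes with a probe set, 43 were detectable by the brightest one, where 12135 of all 19775 genes and 8 of the 57 chemokine and receptor genes were. With siHLX 21 of these read higher and 20 lower, and their median difference was 0, against -0.01 over all 12135 detectable genes. At 2-fold there were 0 of 43, where 0.832% of all detectable genes were. The highest was GNG2, a G protein gamma subunit, with 5.51 on the siHLX array and 4.65 on the siCTR array (0.86), but its other 3 probe sets, all below the threshold, had -0.13, -0.31 and -0.48. Next came RGS18, a regulator of G protein signalling, with 9.28 on the siHLX array and 8.79 on the siCTR array (0.49), and VAV1, an exchange factor for Rac, with 8.22 on the siHLX array and 7.76 on the siCTR array (0.46). Both are read by a single probe set. The lowest were other RGS genes, namely RGS19 with 8.80 on the siHLX array and 9.25 on the siCTR array (-0.45), RGS3 with 6.18 on the siHLX array and 6.58 on the siCTR array (-0.40) and RGS14 with 6.98 on the siHLX array and 7.34 on the siCTR array (-0.36). The other 2 probe sets of RGS14 gave 0.02 and 0.30, and those of RGS3, below the threshold, 0.31 and -0.05.

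By role, the G protein subunits GNAI2, GNAI3, GNB1, GNB2 and GNG5, through which these receptors signal, differed by at most 0.08 in either direction on their brightest probe sets, although a dimmer probe set of GNAI3 gave -0.33. Of the 7 detectable RGS genes, which switch off such signals, 2 were higher and 5 lower by their brightest probe set, where 5759 of all 12135 detectable genes were higher and 6082 lower. RGS10, counted as lower with -0.11, had 0.24 and 0.71 on its other detectable probe sets. RGS16 read higher on both of its detectable probe sets (0.22 and 0.26). ARRB1, an arrestin that takes up receptors after activation, was higher on all 4 of its detectable probe sets, between 0.18 and 0.58, whereas its 3 dimmer probe sets gave -0.51, -0.46 and 0.33. Among 13 detectable genes of cell migration 9 were higher and 3 lower, with RAC2, the Rac of blood cells, at 0.15 and the exchange factor PREX1 at 0.24. The lipid kinase and phospholipase genes were lower in 5 of 6 cases by their brightest probe set, with differences from -0.25 for PIK3R5 to 0.20 for PIK3CG, all smaller than the SD of 0.37 at levels between 5 and 7. Dimmer probe sets below the threshold went the other way, with 0.41 and 0.18 for PIK3R5, 0.30 for PIK3CD and 0.05 for PLCB2. Of the 6 genes that process ligands or receptors 3 were higher and 3 lower. DPP4, a protease that trims several chemokines, read 6.23 with siHLX and 5.99 with siCTR on its brightest probe set, while its other probe sets gave 0.44 and -0.22. The enzymes TPST1 and TPST2, which add sulphate to receptor tyrosines, read higher with siHLX by 0.19 and 0.20. The proteases ADAM10, ADAM17 and FURIN had -0.09, -0.01 and -0.03.

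**Figure D4:**
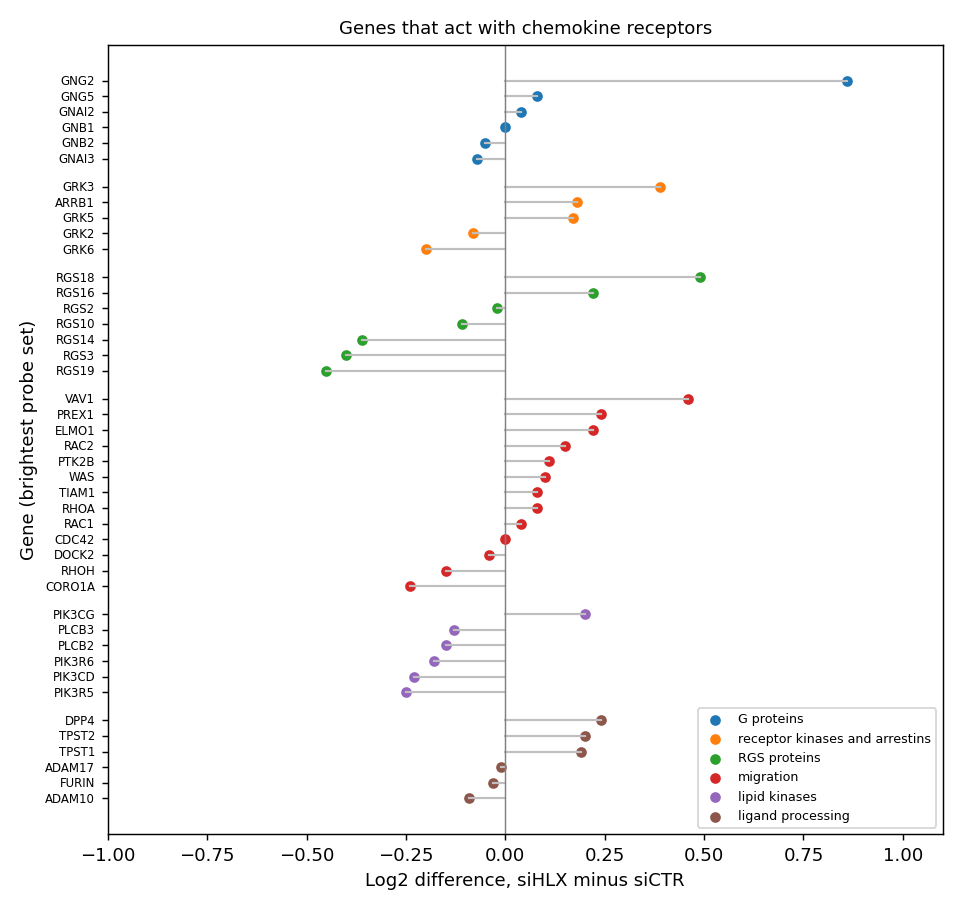
Difference siHLX minus siCTR (horizontal axis, log2 units) of the 43 detectable genes that act with chemokine receptors (y axis), each by its brightest probe set and coloured by role. GNG2 lies at 0.86 and RGS19 at -0.45, and all lie within 2-fold.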

How the data were processed

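Gene expression was measured with 1 Affymetrix array for siHLX and 1 for siCTR. The values deposited by the authors are log2 intensities per probe set, background corrected with RMA and quantile normalised with limma and affy (no versions were given in the sources). Ratios to the sample mean, named in the methods, were not seen in these values. Quantile normalisation makes the overall brightness equal, so every difference is relative to the bulk of transcripts. Of 54613 probe sets that are not controls, 41091 had 1 gene in the platform annotation, 1801 several and 11721 none. Symbols were looked up by Entrez identifier in RefSeq, where 41037 were found and 0 changed.

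Differences are siHLX minus siCTR. A probe set was detectable at a mean at or above 4.865, and differences of 2-fold or more were counted. Named were all genes with a detectable probe set, members at 2-fold, HLX and the 3 highest and 3 lowest genes of the receptor list. Members, lists and settings were chosen with earlier results of these data known. ACKR5 was added to the role lists, and the ligand and receptor pairs were chosen, once values were known, and further genes were named for their role after their values had been seen. The calculations used Python 3.11.15 and pandas 2.3.3. The median calculation was checked on the measured differences, shuffled between probe sets of like level, with set shifts added. Such a check returns the added shift by construction, and the other results were not checked this way. With 1 array per group no test was run. Alternatives covered scaling, the level threshold, the probe sets used and the fold limit.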

Additional observations from a re-analysis of the deposited data

How the results depend on the processing

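Scaling to the poly-A controls adds 0.29 to the median of all detectable probe sets, and the median difference became 0.54 for the detectable members and for type 1, 0.45 for type 2 and 0.40 for type 3. Under it CXCR1 had 0.26, in place of -0.03, and CCL17 and CCR4 had 1.31 and -1.03. At the 75th percentile as threshold, 1 member probe set was detectable, that of CCL20. Without a threshold 1 member was at least 2-fold higher (CCL17) and 1 at least 2-fold lower (CCR4), and the median over all 88 was 0.095. Leaving out the threshold also gave medians of 0.03 for type 2 and -0.03 for type 3, against 0.16 and 0.11 for the detectable probe sets, so that type 3 changed sign. Of the recomputed counts and medians 8 moved and 56 did not, these type 2 and type 3 medians among the 56. A count was taken as moved beyond 1.5 times, and a median beyond the technical SD between probe sets (0.27) over the square root of the number of probe sets. The settings were those above and centring on the median, subtraction of a curve fitted to the level, repeated quantile normalisation, the olfactory receptor limit, leaving out _s_at and _x_at probe sets, the brightest probe set per gene, both arrays at the threshold and a 1.5-fold limit. Some of these could hardly move a value. Centring changed nothing, quantile normalisation repeated a step already applied, and both arrays at the threshold kept the same 9 probe sets. The count of 56 is therefore no measure of how robust the values are. In 3 cases a stricter threshold left no probe set of a type. No paired analysis was possible because there is 1 array per group, and for the same reason no array could be left out. Of the 9 detectable probe sets 7 lie above the olfactory receptor limit.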
